A study of Mus musculus with 24 samples.

Results

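The 40 genes described here encode postsynaptic scaffolds, the synaptic kinase subunits that dock on them, and cell-adhesion molecules that join the sides of a synapse. They were taken by gene symbol from the 22314 named genes of the deposited table, and all 40 were found and were among the 18364 genes tested. By role they fell into 14 postsynaptic scaffolds, 2 subunits of a synaptic kinase, 15 postsynaptic adhesion organizers, 3 genes of the neurexin family, 3 Eph receptors and 3 genes of the SynCAM family. The samples were hippocampi of mice that had undergone hypoxia-ischemia (HI) on postnatal day 10, a model of perinatal brain injury in which the ipsilateral hemisphere is the injured one. Wild-type (WT) mice and mice labelled NEIL1-KO or NEIL2-KO, which are described as lacking the DNA glycosylase Neil1 or Neil2, were sampled on both sides at 3 h and at 6 h, with 2 libraries in each of the 12 groups. All 24 libraries came from animals subjected to the insult, so the contralateral side is a reference from animals that had the insult too and not an uninjured brain. The sources used here do not give how the alleles were made, the strain or the sex.

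At an excitatory synapse, neurotransmitter receptors are held opposite the release site by the postsynaptic density, a sheet of scaffold proteins. PSD-95 and its relatives (the Dlg genes) bind receptors and adhesion molecules, the Dlgap proteins bind the Dlg proteins, Shank proteins bind the Dlgap proteins, and Homer proteins tie Shank to metabotropic glutamate receptors. CaMKII, a kinase built from subunits encoded by Camk2a and Camk2b, is highly abundant in the hippocampal postsynaptic density and is needed for long-term potentiation. Neuroligins, LRRTMs, SLITRKs and FLRTs sit in the postsynaptic membrane and bind presynaptic partners such as neurexins, receptor tyrosine phosphatases or latrophilins, and in the second postnatal week the rodent hippocampus is forming synapses at a high rate.

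Depth was 17771293 to 29252067 reads per library. Neil2 stood at 0 to 3.02 normalized counts in the 8 NEIL2-KO libraries and at 15.2 to 27.8 in the 8 WT libraries. Neil1 stood at 91.6 to 154.6 where NEIL1-KO is the label and at 56.8 to 122.6 in WT, so its counts were not lower under that label. How the allele was made is not given, so these counts do not settle whether Neil1 was lost. Every comparison with the label NEIL1-KO concerns the libraries labelled so. The NEIL2-KO libraries carry the tag NEIL1-KO in 1 label field and were grouped by title. All 12 neuron markers and all 12 markers of hippocampal subfields had reads in every library. Xist was high on both sides of 3 of the 12 animals, none of them WT. In bulk RNA fewer cells of a type and less RNA per cell cannot be told apart, which holds for every value below.

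Of the 40 genes 26 or more were called lower on the ipsilateral side at 6 h in each genotype and, at 3 h, in labelled NEIL1-KO. In WT 11 of the 40 genes were called lower ipsilaterally at 3 h (1.79% of all genes tested were) and 26 at 6 h (10.3% of all genes). In labelled NEIL1-KO the counts were 26 at 3 h (9.85%) and 36 at 6 h (21.4%), and in NEIL2-KO 18 at 3 h (4.95%) and 31 at 6 h (12.6%). A gene was called where its limma p, adjusted by Benjamini-Hochberg across all genes tested, was under 0.05. The call in the other direction was made once, for Dlg1 in labelled NEIL1-KO at 6 h, while the shares of all genes called higher were 2.49% and 10.4% in WT, 7.2% and 17.6% in labelled NEIL1-KO, and 4.29% and 12.2% in NEIL2-KO (3 h and 6 h). The median log2 fold change of the 40 genes, ipsilateral minus contralateral on the log2(normalized count + 1) scale, was -0.44 and -0.60 in WT, -0.65 and -1.17 in labelled NEIL1-KO, and -0.57 and -0.82 in NEIL2-KO, against medians of all genes tested between -0.01 and 0.02. With 0 members called higher in the other 5 comparisons by limma, 1 member passed an unadjusted p under 0.05 in that direction (WT at 3 h) and edgeR and DESeq2 called 0.

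**Figure D1:**
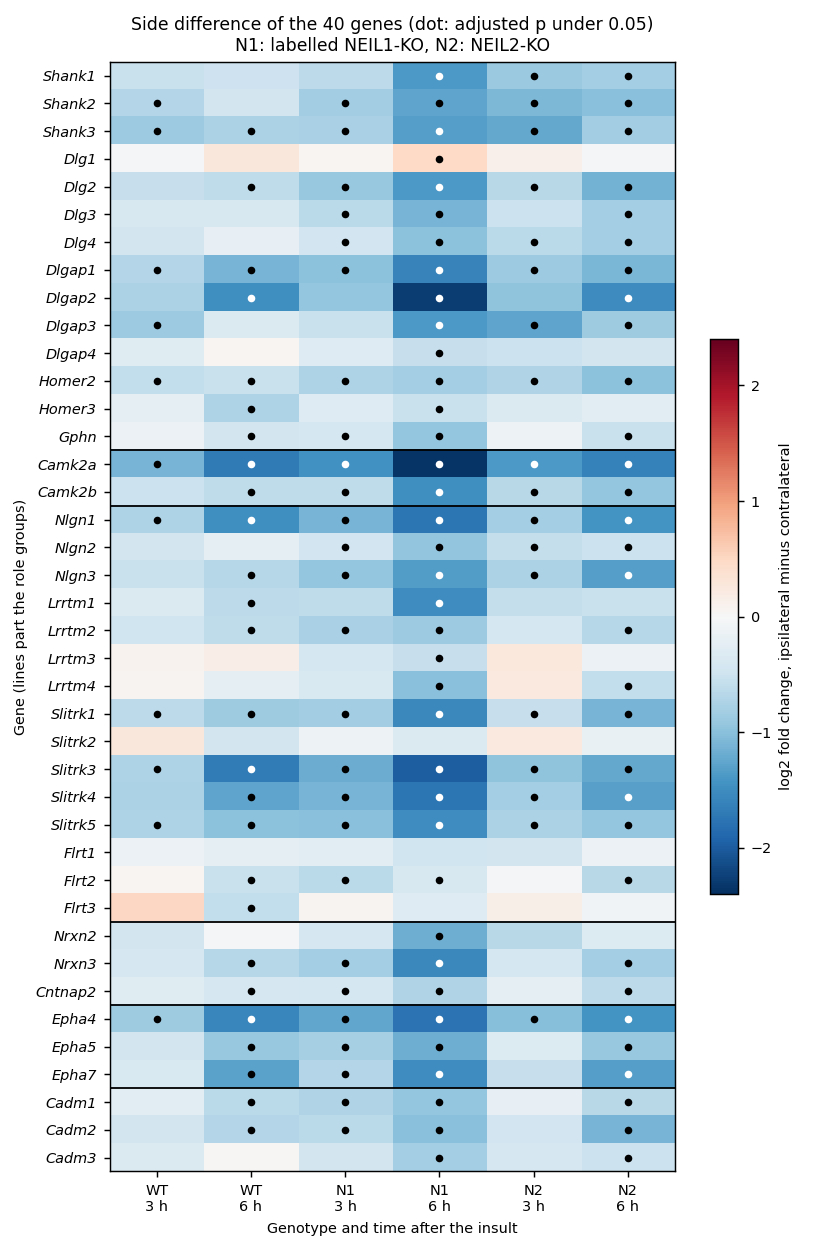
Log2 fold change (ipsilateral minus contralateral, color) of each of the 40 genes (rows, parted by role) in the 6 genotype and time groups (columns, 2 libraries a side), with a dot where the adjusted p was under 0.05. Blue cells fill nearly the whole map, 9 rows carry a dot in all 6 columns, and Dlg1 has the 1 red cell with a dot.

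The 9 genes called lower in all 6 comparisons were the scaffold genes Shank3, Dlgap1 and Homer2, the kinase gene Camk2a, the adhesion genes Nlgn1, Slitrk1, Slitrk3 and Slitrk5, and the Eph receptor gene Epha4. Another 5 genes were called in 5 comparisons, 12 in 4, 3 in 3, 4 in 2 and 4 in 1. Dlg1, Slitrk2 and Flrt1 were not called lower in any. With the sides that share a replicate number taken as 1 animal, 28 of the 40 genes had the lower count on the ipsilateral side in all 12 animals. The share of all genes tested with that pattern, or called lower in several comparisons, was not computed. Nor was the share whose sides were apart, which is given below gene by gene.

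Shank3 encodes a master scaffold that links the Dlgap and Homer layers to the actin cytoskeleton. At 3 h Shank3 stood at 6420.0 and 8485 normalized counts contralaterally against 4196 and 3870.0 ipsilaterally in WT, at 5606 and 5609.6 against 3059 and 3498 in labelled NEIL1-KO, and at 8228 and 7948 against 3734 and 3226 in NEIL2-KO. At 6 h Shank3 stood at 5135 and 5803 normalized counts contralaterally against 3006 and 3428 ipsilaterally in WT, at 6386 and 5788 against 2731 and 2149 in labelled NEIL1-KO, and at 6135 and 6346 against 3752 and 3277 in NEIL2-KO. In every genotype and at both times both ipsilateral libraries lay below both contralateral ones. The log2 fold changes of Shank3 were -0.87 and -0.77 in WT (3 h and 6 h), -0.78 and -1.33 in labelled NEIL1-KO, and -1.22 and -0.83 in NEIL2-KO, with an adjusted p of 0.00123 in WT at 3 h. Its paralogs Shank1 and Shank2 ran alongside it, at -0.50 to -1.37 and -0.44 to -1.27 at their smallest and largest, with calls in 3 and 5 of the 6 comparisons. With the animal as a block Shank1 was also called at 3 h in labelled NEIL1-KO.

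Dlgap1 encodes a protein that bridges PSD-95 and Shank. At 3 h Dlgap1 stood at 7073 and 8254 normalized counts contralaterally against 4996 and 4394 ipsilaterally in WT, at 6535 and 6674 against 3110.3 and 3564 in labelled NEIL1-KO, and at 8360.0 and 7904 against 4761 and 4122 in NEIL2-KO. At 6 h Dlgap1 stood at 6922 and 7143 normalized counts contralaterally against 3343 and 3124 ipsilaterally in WT, at 6939 and 6842 against 2871 and 1799.7 in labelled NEIL1-KO, and at 6933 and 8086 against 3494 and 3549 in NEIL2-KO. Its sides did not overlap in any of the 6 pairs of groups, and the 2 ipsilateral NEIL1-KO libraries at 6 h stood apart from each other. The log2 fold changes were -0.71 and -1.12 in WT (3 h and 6 h), -0.99 and -1.60 in labelled NEIL1-KO, and -0.88 and -1.09 in NEIL2-KO. Dlgap2 had the largest mean difference of the scaffolds, and it passed in 3 comparisons, those at 6 h. With the animal as a block it also passed in the 3 h comparisons of NEIL2-KO and labelled NEIL1-KO.

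At 3 h Dlgap2 stood at 892 and 1025 normalized counts contralaterally against 640.2 and 495 ipsilaterally in WT, at 651 and 984 against 325 and 537 in labelled NEIL1-KO, and at 914 and 1332 against 570.4 and 562 in NEIL2-KO. At 6 h Dlgap2 stood at 1117 and 1166 normalized counts contralaterally against 368 and 454 ipsilaterally in WT, at 1099.8 and 1057 against 351 and 139 in labelled NEIL1-KO, and at 1429 and 1007 against 394 and 449 in NEIL2-KO. No pair of sides overlapped for Dlgap2, and its lowest count was again in labelled NEIL1-KO ipsilateral 6 h replicate 2. Its log2 fold changes were -0.76 and -1.48 in WT (3 h and 6 h), -0.94 and -2.28 in labelled NEIL1-KO, and -0.96 and -1.51 in NEIL2-KO, each with an SE of 0.33.

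Homer2, whose protein ties Shank to glutamate receptors of the metabotropic class, had log2 fold changes within a narrow range. At 3 h Homer2 stood at 1925 and 1904 normalized counts contralaterally against 1314 and 1222 ipsilaterally in WT, at 2194 and 2187 against 1315 and 1307 in labelled NEIL1-KO, and at 1982 and 2058 against 1296 and 1145 in NEIL2-KO. At 6 h Homer2 stood at 1809 and 1954 normalized counts contralaterally against 1329.8 and 1267 ipsilaterally in WT, at 1966 and 2053 against 1301 and 997 in labelled NEIL1-KO, and at 2132 and 1981 against 1058 and 1027 in NEIL2-KO. The sides of Homer2 were apart in all 6 pairs of groups, and its 2 ipsilateral libraries of labelled NEIL1-KO at 6 h were the farthest from each other. The log2 fold changes were -0.60 and -0.53 in WT (3 h and 6 h), -0.74 and -0.82 in labelled NEIL1-KO, and -0.73 and -0.98 in NEIL2-KO. Homer3 was called at 6 h in WT (-0.74 ± 0.19, SE) and in labelled NEIL1-KO (-0.53 ± 0.19), while its values of -0.23, -0.32, -0.34 and -0.26 elsewhere did not pass.

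The Dlg family was split. Dlg1 (SAP97), which is made in many cell types and takes part in receptor trafficking and cell polarity, was the member with the opposite sign. At 3 h Dlg1 stood at 1248 and 1054 normalized counts contralaterally against 1151 and 1113 ipsilaterally in WT, at 989 and 865 against 947 and 953 in labelled NEIL1-KO, and at 975 and 1179.8 against 1079 and 1274 in NEIL2-KO. At 6 h Dlg1 stood at 963 and 965 normalized counts contralaterally against 1062 and 1280.2 ipsilaterally in WT, at 836 and 950.1 against 1150.4 and 1338 in labelled NEIL1-KO, and at 1365 and 933 against 1097 and 1125 in NEIL2-KO. Its sides overlapped at 3 h in every genotype and at 6 h in NEIL2-KO, and at 6 h both ipsilateral counts were above the contralateral ones in WT and labelled NEIL1-KO. On the log2 scale the differences were -0.02 and 0.27 in WT (3 h and 6 h), 0.04 and 0.48 in labelled NEIL1-KO, and 0.13 and -0.02 in NEIL2-KO, with an adjusted p of 0.0237 for the rise in labelled NEIL1-KO at 6 h. That call was lost without NEIL1-KO contralateral 6 h replicate 1 (0.38), without NEIL1-KO ipsilateral 6 h replicate 2 (0.37) and in a fit of the compared groups alone. Its paralogs Dlg2 (PSD-93), Dlg3 (SAP102) and Dlg4 (PSD-95) were called lower in 5, 3 and 4 of the 6 comparisons, with log2 fold changes reaching -1.38 ± 0.19, -1.12 ± 0.17 and -0.98 ± 0.15 in labelled NEIL1-KO at 6 h. With the animal as a block Dlg3 was also called at 3 h in NEIL2-KO.

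Dlgap3, the third Dlgap gene, was among the 3 lowest members at 3 h in WT and in NEIL2-KO. Its counts were 6213 and 9336 contralaterally against 4259 and 4049 ipsilaterally in WT at 3 h and 8311 and 9163 against 3821 and 3436 in NEIL2-KO at 3 h. The sides were apart in both, with log2 fold changes of -0.87 ± 0.21 and -1.27 ± 0.21 (SE). In WT at 6 h, in contrast to Dlgap1 and Dlgap2, Dlgap3 stood at -0.36 (adjusted p 0.259). Dlgap4, among the 3 highest members there, had 5040.2 and 4389.6 contralaterally against 4034 and 5879 ipsilaterally, values that overlap, and was called once, in labelled NEIL1-KO at 6 h (-0.55 ± 0.16). Gphn encodes gephyrin, which anchors glycine and GABA-A receptors at inhibitory synapses and is the scaffold here that belongs to the other class of synapse. It was called lower in 4 comparisons (-0.44 in WT at 6 h, -0.43 and -0.93 in labelled NEIL1-KO, -0.53 in NEIL2-KO at 6 h), and its 3 h values of -0.14 in WT and -0.13 in NEIL2-KO did not pass.

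**Figure D2:**
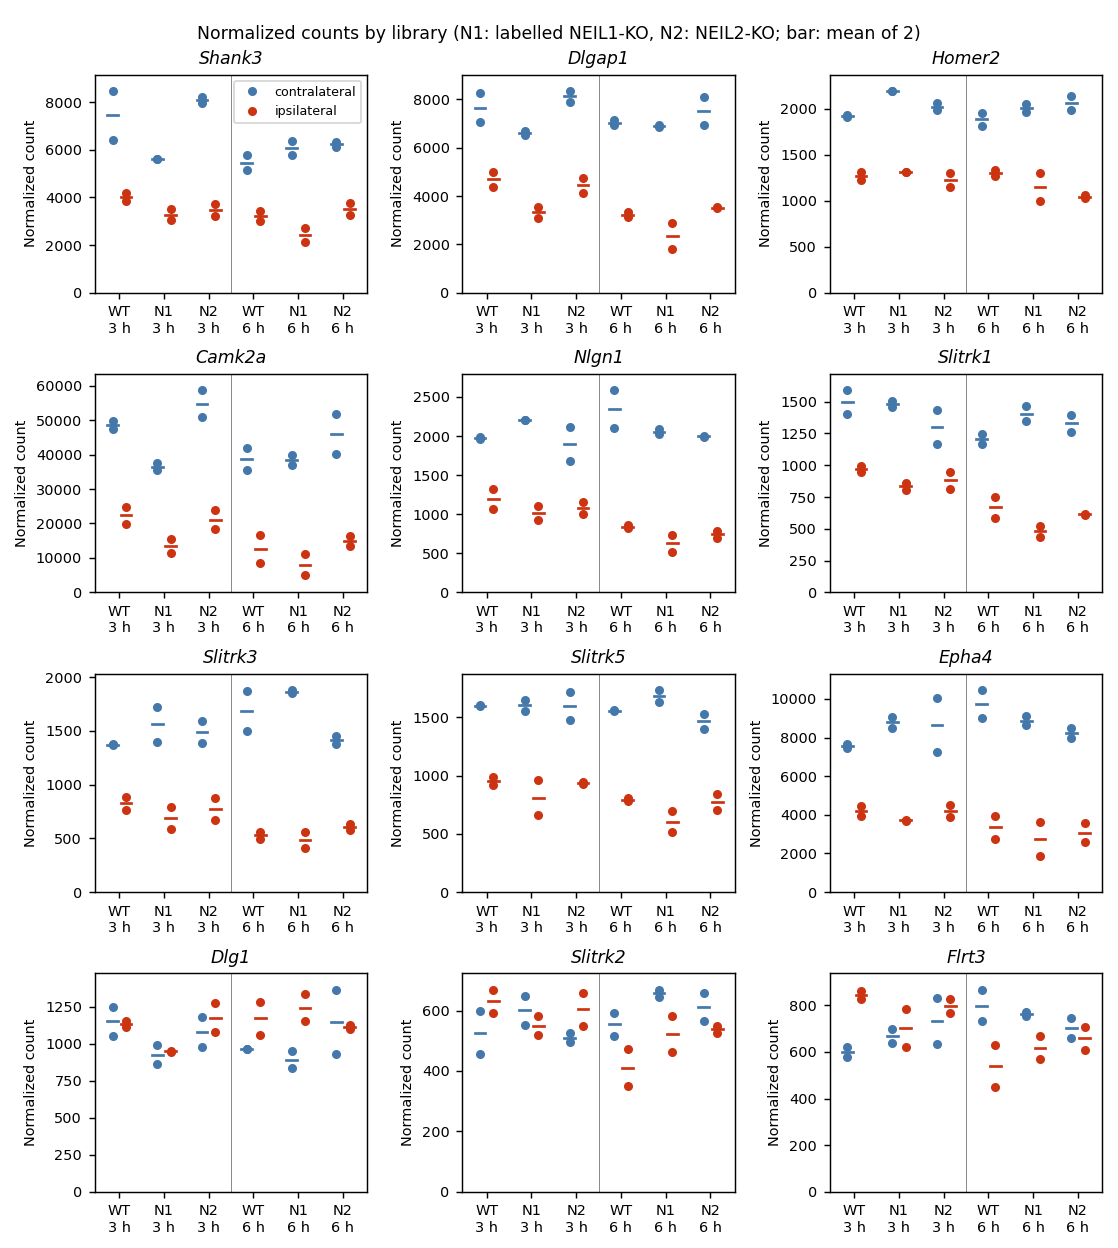
Normalized count of 12 genes in each of the 24 libraries (points; bars are means of 2), by genotype and time, blue contralateral and red ipsilateral, each axis from 0. The first 9 panels are the genes called lower in all 6 comparisons, with red points below blue ones throughout, and the last 3 (Dlg1, Slitrk2, Flrt3) show sides that mix.

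The kinase gene Camk2a had the lowest log2 fold change of the 40 genes in all 6 comparisons. At 3 h Camk2a stood at 47399 and 49666 normalized counts contralaterally against 24856 and 19957 ipsilaterally in WT, at 35499 and 37503 against 11522 and 15531 in labelled NEIL1-KO, and at 58635 and 50832 against 23797 and 18375 in NEIL2-KO. At 6 h Camk2a stood at 35648 and 41796 normalized counts contralaterally against 16679 and 8436 ipsilaterally in WT, at 39766 and 36870.4 against 11183 and 4968 in labelled NEIL1-KO, and at 40296 and 51680.2 against 13318 and 16362 in NEIL2-KO. The ipsilateral libraries at 6 h held 4968 to 16679 normalized counts, all below every contralateral library. Its log2 fold changes were -1.12 and -1.70 in WT (3 h and 6 h), -1.45 and -2.36 in labelled NEIL1-KO, and -1.38 and -1.63 in NEIL2-KO, with SEs of 0.31. Camk2b, the subunit that binds actin, had smaller log2 fold changes. It stood at 20317 and 19502 normalized counts contralaterally against 9917 and 5205 ipsilaterally in labelled NEIL1-KO at 6 h (-1.47 ± 0.20, SE), and at 18965 and 19196 against 12251 and 12925 in WT at 6 h (-0.60 ± 0.20). Camk2b was called in 5 comparisons, and its value in WT at 3 h was -0.52 (adjusted p 0.159). The difference between the subunits was not tested.

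Of the neuroligins, which bind presynaptic neurexins, Nlgn1 (mainly at excitatory synapses) was called lower in all 6 comparisons. At 3 h Nlgn1 stood at 1957 and 1985 normalized counts contralaterally against 1320.1 and 1067 ipsilaterally in WT, at 2200.1 and 2204 against 929 and 1104 in labelled NEIL1-KO, and at 2121 and 1681 against 1152 and 1006 in NEIL2-KO. At 6 h Nlgn1 stood at 2106 and 2585 normalized counts contralaterally against 862 and 819 ipsilaterally in WT, at 2026 and 2087 against 735 and 522 in labelled NEIL1-KO, and at 2006 and 1986 against 697 and 786 in NEIL2-KO. Over all genotypes the contralateral libraries held 1681 or more and the ipsilateral ones 1320.1 or fewer. On the log2 scale Nlgn1 differed by -0.73 and -1.47 in WT (3 h and 6 h), -1.12 and -1.73 in labelled NEIL1-KO, and -0.81 and -1.43 in NEIL2-KO. Nlgn2, found at inhibitory synapses, was called in 4 comparisons, at -0.45 and -0.94 in labelled NEIL1-KO and -0.58 and -0.51 in NEIL2-KO, of which the first was lost with the animal as a block. In WT it stood at -0.44 and -0.23 (adjusted p 0.0998 and 0.297). Nlgn3 was called in 5 comparisons, with -0.69 ± 0.17 (SE) in WT at 6 h and -1.35 ± 0.17 in labelled NEIL1-KO at 6 h. Whether the neuroligins differ from each other was not tested.

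Of the 5 SLITRK genes, whose proteins bind presynaptic receptor tyrosine phosphatases, 4 were called lower in at least 5 comparisons and Slitrk2 was not called. Slitrk3, which is known for its part at inhibitory synapses, was among the 3 lowest members in WT at 6 h and in labelled NEIL1-KO at both times. At 3 h Slitrk3 stood at 1381 and 1367 normalized counts contralaterally against 885 and 767 ipsilaterally in WT, at 1402 and 1725 against 587 and 796 in labelled NEIL1-KO, and at 1597 and 1387 against 872 and 667 in NEIL2-KO. At 6 h Slitrk3 stood at 1503 and 1875 normalized counts contralaterally against 563 and 492 ipsilaterally in WT, at 1882 and 1851 against 558 and 406 in labelled NEIL1-KO, and at 1449 and 1379 against 575 and 629 in NEIL2-KO. The sides of Slitrk3 were apart in every pair of groups. Its log2 fold changes were -0.74 and -1.67 in WT (3 h and 6 h), -1.18 and -1.97 in labelled NEIL1-KO, and -0.96 and -1.23 in NEIL2-KO.

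At 3 h Slitrk1 stood at 1400.0 and 1589 normalized counts contralaterally against 991 and 944 ipsilaterally in WT, at 1503 and 1456 against 807 and 863 in labelled NEIL1-KO, and at 1437 and 1170.3 against 946 and 817 in NEIL2-KO. At 6 h Slitrk1 stood at 1164 and 1244 normalized counts contralaterally against 587 and 749.5 ipsilaterally in WT, at 1351 and 1462 against 523 and 439 in labelled NEIL1-KO, and at 1263 and 1396 against 607 and 620.0 in NEIL2-KO. Slitrk1 had its ipsilateral values below its contralateral ones in all 6 pairs of groups. Its log2 fold changes were -0.62 and -0.86 in WT (3 h and 6 h), -0.83 and -1.55 in labelled NEIL1-KO, and -0.56 and -1.11 in NEIL2-KO.

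At 3 h Slitrk5 stood at 1597 and 1603 normalized counts contralaterally against 992 and 920.3 ipsilaterally in WT, at 1555 and 1652 against 659 and 960.4 in labelled NEIL1-KO, and at 1719 and 1473 against 945 and 926 in NEIL2-KO. At 6 h Slitrk5 stood at 1551 and 1565 normalized counts contralaterally against 803 and 779 ipsilaterally in WT, at 1734 and 1628 against 694 and 511 in labelled NEIL1-KO, and at 1529 and 1401 against 701 and 837 in NEIL2-KO. Slitrk5 was likewise lower in both ipsilateral libraries of each pair, with log2 fold changes of -0.74 and -0.98 in WT (3 h and 6 h), -1.01 and -1.49 in labelled NEIL1-KO, and -0.77 and -0.93 in NEIL2-KO. Slitrk4 was called in 5 comparisons and not in WT at 3 h (-0.76, adjusted p 0.0533), and reached -1.73 ± 0.22 (SE) in labelled NEIL1-KO at 6 h.

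At 3 h Slitrk2 stood at 597 and 456 normalized counts contralaterally against 669 and 592 ipsilaterally in WT, at 554 and 649.7 against 518 and 583 in labelled NEIL1-KO, and at 525 and 496 against 658 and 550.2 in NEIL2-KO. At 6 h Slitrk2 stood at 516 and 593 normalized counts contralaterally against 472 and 351 ipsilaterally in WT, at 644 and 669.5 against 462 and 583 in labelled NEIL1-KO, and at 567 and 659 against 549 and 526 in NEIL2-KO. At 3 h the sides of Slitrk2 overlapped in WT and labelled NEIL1-KO and the ipsilateral counts were the higher ones in NEIL2-KO, while at 6 h the ipsilateral counts were the lower ones in every genotype. Its log2 fold changes were 0.27 and -0.44 in WT (3 h and 6 h), -0.13 and -0.34 in labelled NEIL1-KO, and 0.24 and -0.18 in NEIL2-KO, with the smallest adjusted p of 0.0674 in WT at 6 h. By an unadjusted limma p under 0.05, Slitrk2 passed in WT at 6 h alone.

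The 250 bases before the annotated start are shown for 3 SLITRK genes called lower in all 6 comparisons and for Slitrk2, which was called in none, so that the family members can be set side by side.
Slitrk1, chr14:108914240-108914489, minus strand: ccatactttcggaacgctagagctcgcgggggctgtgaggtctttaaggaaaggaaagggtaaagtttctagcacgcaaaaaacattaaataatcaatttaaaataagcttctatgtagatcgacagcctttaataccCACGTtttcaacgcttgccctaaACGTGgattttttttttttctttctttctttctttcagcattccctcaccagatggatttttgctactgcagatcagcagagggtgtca
Slitrk3, chr3:73057067-73057316, minus strand: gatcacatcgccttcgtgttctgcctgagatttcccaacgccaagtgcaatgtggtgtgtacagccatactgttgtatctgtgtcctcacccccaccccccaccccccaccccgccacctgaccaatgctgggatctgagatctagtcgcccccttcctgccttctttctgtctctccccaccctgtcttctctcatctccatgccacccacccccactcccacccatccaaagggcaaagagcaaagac
Slitrk5, chr14:111675777-111676026, plus strand: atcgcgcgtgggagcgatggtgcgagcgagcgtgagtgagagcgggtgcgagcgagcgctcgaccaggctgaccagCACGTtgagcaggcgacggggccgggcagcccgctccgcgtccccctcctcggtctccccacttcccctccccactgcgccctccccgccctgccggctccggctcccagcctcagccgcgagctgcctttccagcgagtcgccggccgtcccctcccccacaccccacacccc
Slitrk2, chrX:66652909-66653158, plus strand: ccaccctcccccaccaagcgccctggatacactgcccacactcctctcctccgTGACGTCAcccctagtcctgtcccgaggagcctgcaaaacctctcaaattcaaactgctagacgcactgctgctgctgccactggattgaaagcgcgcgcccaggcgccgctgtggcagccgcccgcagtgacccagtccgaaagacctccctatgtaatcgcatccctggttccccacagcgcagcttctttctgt
Capitals mark ACGTG on either strand (CACGT as printed on the other), a form of the core of the element that hypoxia-inducible factors bind, and TGACGTCA, the palindromic cAMP response element. Other forms of that core were not searched or marked. The sequences are from RefSeq on GRCm38.p6 and are read 5′ to 3′ along the gene. Slitrk2 has a second annotated start, and the window printed is the one that holds TGACGTCA. ACGTG was found 2 times in the Slitrk1 window, once in that of Slitrk5 and in neither of the others. Over all 32851 promoter windows of this length 16.6% held ACGTG and 1.55% held TGACGTCA, with both strands read; CACGTG counts as an ACGTG match. The 30 members with an entry have 47 windows, of which 10 held ACGTG (21.28%) and 1 (Slitrk2) TGACGTCA (2.128%). Of the 9 genes called in all 6 comparisons 8 have an entry, with 11 windows, of which 4 held ACGTG. The median share of G and C bases was 56.8% in the windows of the members and 52.4% in all windows. These are matches of letters and show no binding.

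Among the LRRTM genes, whose proteins are postsynaptic ligands of neurexins and, for Lrrtm4, of heparan sulfate proteoglycans, the levels moved less evenly. Lrrtm2 was called lower in 4 comparisons (-0.60 in WT at 6 h, -0.78 and -0.88 in labelled NEIL1-KO, -0.68 in NEIL2-KO at 6 h). Lrrtm1 was called at 6 h in WT (-0.63) and in labelled NEIL1-KO (-1.48), and with the animal as a block also in labelled NEIL1-KO at 3 h and NEIL2-KO at 6 h. Lrrtm3 was among the 3 highest members in WT at both times, with 386 and 432 contralaterally against 431 and 440.0 ipsilaterally at 3 h and 370.3 and 321 against 287 and 514 at 6 h. It was also in NEIL2-KO at 3 h, with 328 and 377 against 419 and 418, as was Lrrtm4, with 283 and 232 against 331 and 279. None of these differences passed (Lrrtm3 0.09, 0.16 and 0.25, Lrrtm4 0.24). In labelled NEIL1-KO at 6 h both were called lower, Lrrtm3 at -0.55 ± 0.21 (SE) and Lrrtm4 at -1.01 ± 0.16, and Lrrtm4 also in NEIL2-KO at 6 h (-0.59 ± 0.16). The Lrrtm3 call was lost with edgeR and with the animal as a block.

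Flrt3, a latrophilin ligand, had the smallest mean side difference of the organizers. At 3 h Flrt3 stood at 622 and 578 normalized counts contralaterally against 829.6 and 862 ipsilaterally in WT, at 641 and 699 against 621 and 783 in labelled NEIL1-KO, and at 829.9 and 635 against 826 and 769 in NEIL2-KO. At 6 h Flrt3 stood at 731 and 868 normalized counts contralaterally against 630.2 and 448 ipsilaterally in WT, at 756 and 772 against 571 and 667 in labelled NEIL1-KO, and at 744 and 659 against 607 and 709 in NEIL2-KO. In WT both ipsilateral libraries lay above the contralateral ones at 3 h and below them at 6 h, in labelled NEIL1-KO they lay below at 6 h, and in the other 3 pairs of groups the sides overlapped. The log2 fold changes of Flrt3 were 0.50 and -0.58 in WT (3 h and 6 h), 0.06 and -0.31 in labelled NEIL1-KO, and 0.13 and -0.09 in NEIL2-KO, of which the one in WT at 6 h passed (adjusted p 0.0181) and that in WT at 3 h did not (0.097). Flrt2 was called lower in 4 comparisons (-0.54, -0.65, -0.39 and -0.67). Flrt1 was not called, with log2 fold changes between -0.47 and -0.13; in NEIL2-KO at 6 h, where it was among the 3 highest members, it had 474 and 335 contralaterally against 348 and 376 ipsilaterally.

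In the neurexin family, Nrxn3 and Nrxn2 encode presynaptic partners of neuroligins and LRRTMs, and Cntnap2 encodes a neurexin-related protein of axons. Nrxn3 had the largest mean difference of the 3. At 3 h Nrxn3 stood at 3547 and 3489.7 normalized counts contralaterally against 2809.8 and 2487 ipsilaterally in WT, at 3391 and 3624 against 1796 and 2179.7 in labelled NEIL1-KO, and at 3572 and 3193 against 2655 and 2375 in NEIL2-KO. At 6 h Nrxn3 stood at 3317 and 3115 normalized counts contralaterally against 1928 and 2098 ipsilaterally in WT, at 3205 and 3309 against 1529 and 816 in labelled NEIL1-KO, and at 3134 and 3549 against 1840.0 and 1965 in NEIL2-KO. Its ipsilateral counts were below the contralateral ones in all 6 pairs of groups. For Nrxn3 the log2 fold changes were -0.41 and -0.68 in WT (3 h and 6 h), -0.82 and -1.54 in labelled NEIL1-KO, and -0.43 and -0.81 in NEIL2-KO, called in 4 of the 6. Cntnap2 had the smallest mean difference, with 2961 and 3012 contralaterally against 2325 and 2217 ipsilaterally in WT at 6 h (-0.40 ± 0.10, SE) and 3061 and 2859 against 1947 and 1664 in labelled NEIL1-KO at 6 h (-0.72 ± 0.10), and was also called in 4. Nrxn2 was called once, at -1.18 ± 0.23 in labelled NEIL1-KO at 6 h, and stood at -0.05 in WT at 6 h.

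The 3 Eph receptor genes among the members, for receptors that signal through contact with ephrins on neighbouring cells, were called together in 4 of the 6 comparisons. Epha4, known for its part in dendritic spine shape, was among the 3 lowest members in WT and NEIL2-KO at 6 h and in labelled NEIL1-KO at 3 h. At 3 h Epha4 stood at 7674 and 7464 normalized counts contralaterally against 4450.0 and 3958 ipsilaterally in WT, at 8519 and 9063 against 3692 and 3732 in labelled NEIL1-KO, and at 10039.8 and 7249 against 4509.7 and 3885 in NEIL2-KO. At 6 h Epha4 stood at 9009.9 and 10465 normalized counts contralaterally against 3941 and 2762 ipsilaterally in WT, at 9115 and 8641 against 3641 and 1866 in labelled NEIL1-KO, and at 7978 and 8492 against 2601 and 3553 in NEIL2-KO. No ipsilateral library overlapped the contralateral ones of its pair. On the log2 scale Epha4 differed by -0.85 and -1.56 in WT (3 h and 6 h), -1.24 and -1.77 in labelled NEIL1-KO, and -1.03 and -1.44 in NEIL2-KO. Epha7 reached -1.28 ± 0.23, -1.49 ± 0.23 and -1.32 ± 0.23 (SE) at 6 h in WT, labelled NEIL1-KO and NEIL2-KO. Epha5, with the smallest mean of the 3, had 6997 and 6712 contralaterally against 3816 and 3452 ipsilaterally in WT at 6 h (-0.92 ± 0.13) and 6686 and 5700.4 against 4767 and 4350.3 at 3 h (-0.44 ± 0.13, adjusted p 0.0641).

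The SynCAM genes encode immunoglobulin-type adhesion molecules that act on both sides of the synapse, and they were called at 6 h (Cadm3 not in WT) and, in labelled NEIL1-KO, at 3 h (Cadm1 and Cadm2). Cadm2 had the largest mean difference, with 7920.1 and 7221 contralaterally against 4272 and 4998 ipsilaterally in WT at 6 h (-0.71 ± 0.16, SE) and 7089 and 6861 against 2980.3 and 3479 in NEIL2-KO at 6 h (-1.11 ± 0.16). Cadm3 had the smallest, with 8079 and 7975 against 6705 and 10013 in WT at 6 h (0.03 ± 0.16), where the sides overlapped, and 8328 and 8258 against 5556 and 3978 in labelled NEIL1-KO at 6 h (-0.82 ± 0.16), where they did not. Cadm1 was called at 6 h in all genotypes (-0.65, -0.92 and -0.67) and at 3 h in labelled NEIL1-KO (-0.72).

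**Figure D3:**
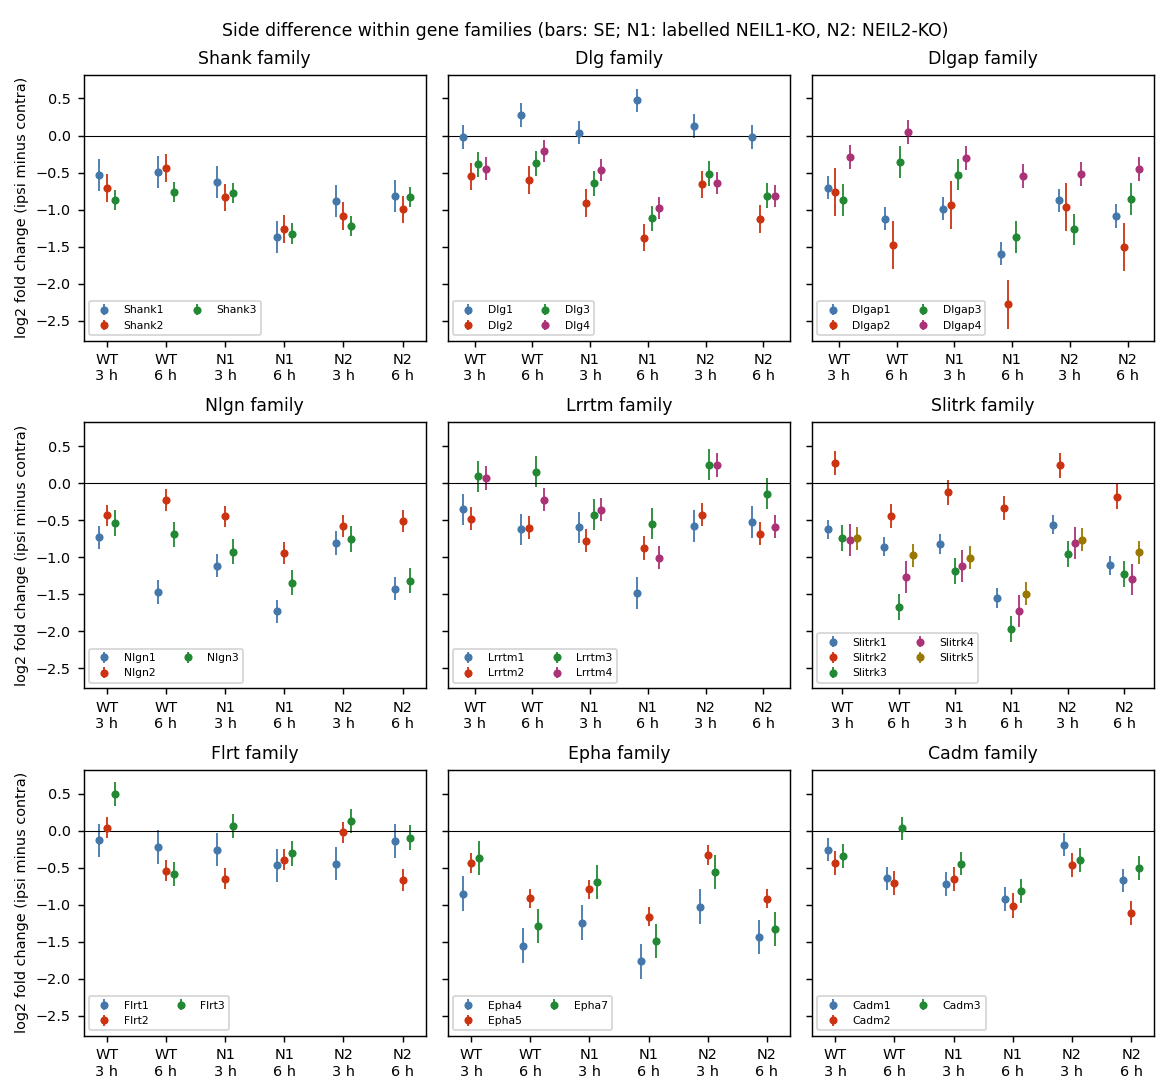
Log2 fold change (ipsilateral minus contralateral, points, with SE as bars) of the genes of 9 families in the 6 genotype and time groups. Most points lie below the line at 0, with Dlg1 in the Dlg panel, Slitrk2 in the Slitrk panel and Flrt3 in the Flrt panel nearest to it or above it.

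Markers of neurons and of hippocampal subfields had medians below 0 in every side comparison, and no other list of markers did. The 12 neuron markers were called lower in 0 (WT 3 h), 2 (WT 6 h), 4 (labelled NEIL1-KO 3 h), 12 (labelled NEIL1-KO 6 h), 2 (NEIL2-KO 3 h) and 8 cases (NEIL2-KO 6 h), with medians of -0.27, -0.22, -0.41, -0.93, -0.28 and -0.54 in that order, and no marker was at 0 in any library. In WT at 3 h 4 of the 12 had an unadjusted limma p under 0.05, all lower, and edgeR and DESeq2 called 1 each. Their summed level was 174777 to 204720 normalized counts in the contralateral libraries at 6 h and 87557 to 157345 in the ipsilateral ones. Of the 12 subfield markers 1, 8, 4, 9, 3 and 4 were called lower in the same order, and their sum at 6 h was 30080 to 37847 contralaterally and 11653 to 19615 ipsilaterally. The subfield markers had medians of -0.50, -1.20, -0.75, -1.35, -0.57 and -0.83 in that order. Endothelial markers went the other way, with 1, 3, 5, 8, 4 and 5 of 10 called higher, 1 called lower in WT at 6 h, and a sum at 6 h of 5176 to 5833 contralaterally and 6666 to 16044 ipsilaterally. Choroid plexus markers were called lower in WT at 6 h (4 of 10) and higher in labelled NEIL1-KO at 6 h (2 of 10), with sums between 388 and 37809 over the libraries. Tcf7l2, a thalamic marker, stood at 582 and 939.6 ipsilaterally in WT at 6 h and at 178 and 153 contralaterally, and 4 of 9 striatal markers tested were called higher there and 2 lower. Of the 10 astrocyte, 10 microglia and 10 oligodendrocyte-lineage markers at most 3, 2 and 1 were called lower in a comparison and at most 3, 4 and 1 higher, and of the thalamic markers at most 2 were called in either direction. The part of these markers in the results on the 40 genes was not tested.

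In each ipsilateral library the median of the 40 genes lay below that of the neuron markers. Relative to the contralateral mean of its time, the median of the 40 genes was -0.39 and -0.52 ipsilaterally in WT at 3 h and -0.70 and -0.64 at 6 h, with neuron-marker medians of -0.20 and -0.27, and -0.36 and -0.17. Medians per library were not computed for the subfield markers. In the side comparisons their medians lay below those of the 40 genes, except in NEIL2-KO at 3 h (-0.57 in both). One library stood apart. Labelled NEIL1-KO ipsilateral 6 h replicate 2 had a median of -1.49 for the 40 genes and -1.29 for the neuron markers, while replicate 1 had -0.84 and -0.60. Without replicate 2 33 members in place of 36 were called lower in that comparison.

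**Figure D4:**
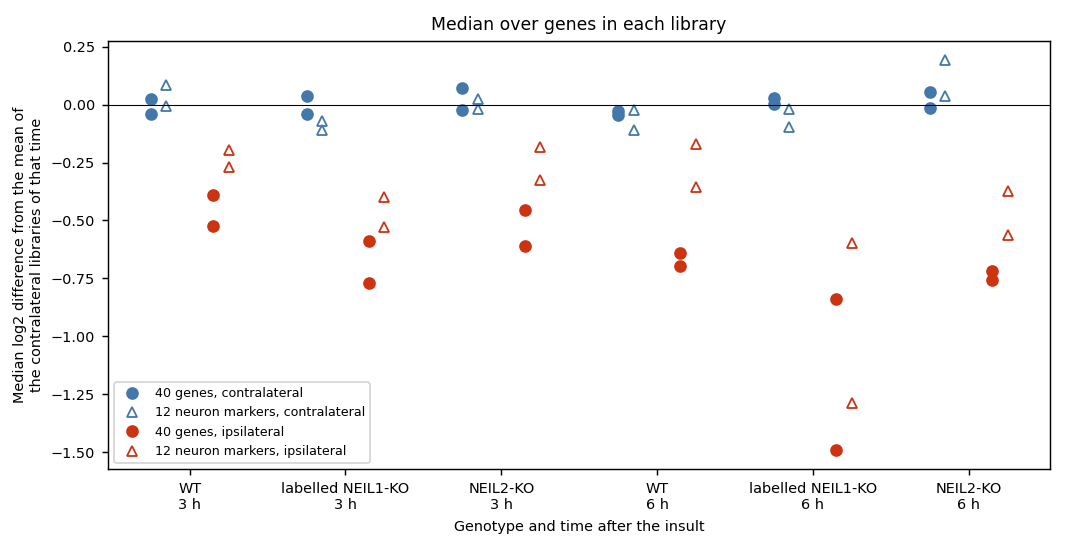
Median over the 40 genes (filled circles) and over 12 neuron markers (open triangles) of the log2 difference from the contralateral mean of the same time, for each of the 24 libraries by genotype and time. Ipsilateral circles (red) lie below their triangles in all 12 libraries, and the lowest circle, at -1.49, is labelled NEIL1-KO ipsilateral 6 h replicate 2.

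A smaller share of the members called at 3 h than of those called at 6 h stayed called when single libraries were left out. Each such fit leaves 1 library in a group and so has less power. A lost call therefore does not show that it rested on a particular library. Leaving out 1 library at a time, the 11 members called lower in WT at 3 h became 7 and 2 (without contralateral replicate 1 or 2) and 3 and 1 (without ipsilateral replicate 1 or 2), and Shank3 was the one called in all 4 of these fits. The 18 of NEIL2-KO at 3 h became 6 and 11 without contralateral replicate 1 or 2 and 4 without ipsilateral replicate 2. The 26 of labelled NEIL1-KO at 3 h became 16 without contralateral replicate 2 and 13 without ipsilateral replicate 1. The 26 of WT at 6 h became 17, 16 and 17 without contralateral replicate 1, contralateral replicate 2 or ipsilateral replicate 2. Members called in all 4 such fits numbered 13 of 26 in WT at 6 h, 12 of 26 and 32 of 37 in labelled NEIL1-KO at 3 h and 6 h, and 4 of 18 and 23 of 31 in NEIL2-KO.

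Other genes of the postsynaptic density and of synaptic adhesion, outside the 40, were called lower as well. Of 30 other postsynaptic density genes 9, 16, 19, 24, 17 and 19 were called lower (WT 3 h, WT 6 h, labelled NEIL1-KO 3 h and 6 h, NEIL2-KO 3 h and 6 h) and 0, 1, 0, 0, 0 and 1 higher (unadjusted 0, 3, 1, 0, 0 and 1, by edgeR 0, 1, 0, 0, 0 and 1, by DESeq2 0, 3, 0, 0, 0 and 1), with medians of -0.46, -0.51, -0.58, -0.86, -0.54 and -0.60. The 2 with the smallest adjusted p in WT at 6 h were Ppp1r9a, for the actin-binding protein neurabin (-0.87 ± 0.14, SE), and Kalrn, for a guanine nucleotide exchange factor of dendritic spines (-1.19 ± 0.20). Of 42 other synaptic adhesion genes 6, 18, 25, 39, 16 and 29 were called lower and 0 higher in each comparison, with medians of -0.42 and -0.42 in WT, -0.58 in labelled NEIL1-KO at 3 h, -0.48 and -0.71 in NEIL2-KO, and the lowest median in labelled NEIL1-KO at 6 h. Here the 2 smallest were Ntrk3, for a receptor tyrosine kinase that binds neurotrophin-3 (-1.72 ± 0.13), and Tenm4, for a teneurin (-1.39 ± 0.19). In the higher direction 1 of these 42 genes had an unadjusted limma p under 0.05 in WT at 6 h and 0 elsewhere, edgeR called 0, and DESeq2 called 1 in WT at 6 h.

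Of the 19 other Eph receptor and ephrin genes 0, 2, 1, 6, 1 and 2 were called lower and 1, 6, 3, 4, 2 and 5 higher, in the same order (in WT at 3 h, for lower, 2 at an unadjusted limma p under 0.05, 0 by edgeR and 2 by DESeq2), with medians of -0.07, 0.41, -0.03, -0.09, -0.14 and 0.35. The 2 with the smallest adjusted p in WT at 6 h both rose: Epha2, a receptor also made outside neurons (2.32 ± 0.41, SE), and Efnb1, for a transmembrane ephrin (1.54 ± 0.24). Epha2 was higher in all 6 comparisons, at 3.59 and 2.32 in WT (3 h and 6 h), 3.63 and 2.39 in labelled NEIL1-KO, and 2.84 and 3.42 in NEIL2-KO (called in each). Epha4, Epha5 and Epha7 stood on the other side of 0 from Epha2 in every comparison, a difference between genes that was not tested.

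The question of time was put to the side difference itself, 6 h minus 3 h as a mean over the genotypes. The side difference shifted downward for 8 of the 40 genes (0.463% of all genes tested were called lower) and upward for 0 (1.43% were called higher). For Flrt3, 1 of the 8, it was above 0 at 3 h and below 0 at 6 h in each genotype. Unadjusted, 23 members had a p under 0.05 in the lower direction and 0 in the higher, and edgeR and DESeq2 called 8 and 13 lower and 0 higher. The 8 were the Eph receptor genes Epha7 (-0.82 ± 0.19, SE) and Epha5 (-0.48 ± 0.11), the adhesion genes Slitrk3 (-0.66 ± 0.14), Nlgn1 (-0.66 ± 0.13), Lrrtm4 (-0.59 ± 0.13), Flrt3 (-0.56 ± 0.13) and Slitrk1 (-0.50 ± 0.11), and the gephyrin gene Gphn (-0.40 ± 0.10), with limma adjusted p-values of 0.0192 to 0.0387. By role that was 5 of 15 organizers, 2 of 3 Eph receptors and 1 of 14 scaffolds.

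Epha7 gives the values behind this. At 3 h Epha7 stood at 1886 and 1377 normalized counts contralaterally against 1279 and 1219.8 ipsilaterally in WT, at 1998 and 2381 against 1344 and 1347 in labelled NEIL1-KO, and at 2267 and 1779.9 against 1477 and 1254 in NEIL2-KO. At 6 h Epha7 stood at 2182 and 2466 normalized counts contralaterally against 1102 and 824 ipsilaterally in WT, at 2435 and 2245 against 1143 and 605 in labelled NEIL1-KO, and at 2007 and 2116 against 712 and 950.0 in NEIL2-KO. In every genotype both ipsilateral counts at 6 h were below both at 3 h, while the contralateral counts of the 2 times overlapped in labelled NEIL1-KO and NEIL2-KO and were higher at 6 h in WT. The median change over the 40 genes was -0.34, against -0.01 over all genes tested. Gphn showed the same order on a smaller scale, with 1653 and 1562 ipsilateral counts in WT at 3 h and 1365 and 1302 at 6 h, 1334 and 1371 and 1089 and 815 in labelled NEIL1-KO, and 1638 and 1484 and 1094 and 1271 in NEIL2-KO. Shank2, Shank3 and Homer2 had changes of -0.02, -0.02 and -0.09, none called. The animals of the 2 times were different ones, and the 0 to 21 members called when single libraries were left out (0 without WT ipsilateral 3 h replicate 1 or without NEIL2-KO ipsilateral 3 h replicate 1, 21 without NEIL1-KO ipsilateral 6 h replicate 1) show that the count depends on single libraries. In a limma fit with the animal as a block 7 were called, and Flrt3 was not (adjusted p 0.0594).

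**Figure D5:**
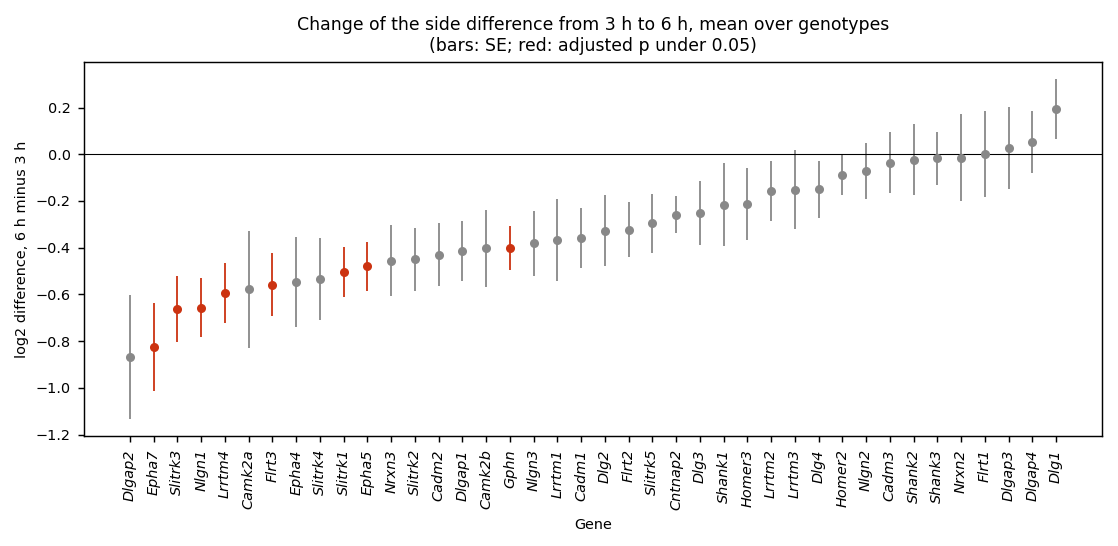
Change of the side difference from 3 h to 6 h (log2, mean over the genotypes, with SE as bars) for each of the 40 genes in order of size, red where the adjusted p was under 0.05. The 8 red points lie between -0.82 and -0.40, and Dlg1 is the highest point.

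On the contralateral side alone, 6 h against 3 h, 1 member passed. Flrt2 rose by 0.47 ± 0.08 (SE), called by limma, edgeR and DESeq2, while 0 members fell (0.114% of all genes were called higher and 0.218% lower). Its contralateral counts were 855 and 844 at 3 h and 1274 and 1344 at 6 h in WT, 1093 and 1204 and 1325 and 1445 in labelled NEIL1-KO, and 912 and 867 and 1220.2 and 1318 in NEIL2-KO. The call was lost when 1 of 8 of the 12 contralateral libraries was left out (WT 3 h replicate 1 and 6 h replicate 2, labelled NEIL1-KO 3 h replicate 1 and both at 6 h, NEIL2-KO both at 3 h and 6 h replicate 2). For the count of 0 lower, 1 member had an unadjusted p under 0.05 and edgeR and DESeq2 called 0.

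The genotypes were compared with WT side by side, with 3 h and 6 h averaged. Contralaterally 0 members were called in labelled NEIL1-KO (0.103% of all genes tested were) and 0 in NEIL2-KO (0.0817%), by limma, edgeR and DESeq2 alike, with 1 member in each case at an unadjusted p under 0.05. Ipsilaterally 0 members were called in NEIL2-KO (0.109%), again by all 3 tools, with 4 lower and 1 higher at an unadjusted p under 0.05. In labelled NEIL1-KO, 17 members were called lower ipsilaterally (7.4% of all genes were called lower) and 0 higher (1.91%), with 28 lower and 0 higher at an unadjusted p under 0.05 and 0 higher by edgeR and DESeq2. Of the 12 neuron markers 8 were called lower in the same comparison, with a median of -0.42 beside -0.36 for the 40 genes and -0.02 for all genes. Of markers of other cells and regions, 3 of 10 of the oligodendrocyte lineage (median -0.36), 2 of 10 thalamic, 1 of 9 striatal and 1 of 12 subfield markers were called lower there, and 2 of 10 endothelial markers higher (median 0.43). Their part in the difference of the 17 members was not tested.

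The 17 were 8 scaffold genes, Camk2b, 5 organizers, Nrxn3, Cntnap2 and Cadm3, with log2 differences of -0.64 to -0.23. Dlg2 had the smallest adjusted p (-0.64 ± 0.13, SE, limma adjusted p 0.0102). Its ipsilateral counts were 6754 and 6244 at 3 h and 4878 and 6762 at 6 h in WT, and 4331 and 5332 at 3 h and 4123 and 2459 at 6 h in labelled NEIL1-KO. Nrxn3 followed (-0.63 ± 0.13), with the ipsilateral counts given above. Cadm3 (-0.51 ± 0.11) had 7894 and 7108 at 3 h and 6705 and 10013 at 6 h in WT, and 5949.6 and 7029.9 at 3 h and 5556 and 3978 at 6 h in labelled NEIL1-KO. For the neuroligin of inhibitory synapses, Nlgn2 (-0.38 ± 0.10), the counts were 6152 and 5722 at 3 h and 4976 and 6638 at 6 h in WT, and 5177 and 5422 at 3 h and 4557 and 3200.4 at 6 h in labelled NEIL1-KO. Within each time both labelled NEIL1-KO values of Dlg2, Nrxn3, Cadm3 and Nlgn2 lay below both WT values. The 17 were picked by their call in this same comparison, so such an order, here and below, adds no support. The share of all genes tested with that order was not computed.

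The scaffold genes among the 17 showed the same order of groups. Shank2 (-0.50 ± 0.13, SE) had 2869 and 2634 at 3 h and 2236 and 3361 at 6 h in WT, and 1848 and 2517 at 3 h and 2175 and 1386 at 6 h in labelled NEIL1-KO. Dlg3 (-0.50 ± 0.12), whose protein binds NMDA receptors early in development, had 3395 and 3182 at 3 h and 2675 and 2962 at 6 h in WT, and 2409 and 2901 at 3 h and 2279.8 and 1332 at 6 h in labelled NEIL1-KO. Dlg4 (-0.46 ± 0.11), for the scaffold PSD-95, had 13766 and 12150.2 at 3 h and 10936 and 13004 at 6 h in WT, and 10370.1 and 11268 at 3 h and 9135 and 6273 at 6 h in labelled NEIL1-KO. Within each time these 3 genes had both labelled NEIL1-KO values below both WT values. Dlgap3 (-0.50 ± 0.15) had 4259 and 4049 at 3 h and 3583 and 5486 at 6 h in WT, and 3580.4 and 4009.7 at 3 h and 3175 and 1876 at 6 h in labelled NEIL1-KO. Gphn had a log2 difference of -0.37 ± 0.08, and Shank3 and Dlgap1, whose counts are above, had -0.35 ± 0.10 and -0.50 ± 0.11. The groups did not overlap within a time for Dlgap3, Gphn, Shank3 and Dlgap1 either.

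Camk2b (-0.54 ± 0.14, SE) had 15359 and 13842 at 3 h and 12251 and 12925 at 6 h in WT, and 11090.3 and 13202 at 3 h and 9917 and 5205 at 6 h in labelled NEIL1-KO. Cntnap2 (-0.23 ± 0.07) had 2485 and 2524 at 3 h and 2325 and 2217 at 6 h in WT, and 2244 and 2331 at 3 h and 1947 and 1664 at 6 h in labelled NEIL1-KO. For both genes the labelled NEIL1-KO values were the lower ones at each time. Lrrtm3 (-0.48 ± 0.15) had 431 and 440.0 at 3 h and 287 and 514 at 6 h in WT, and 324 and 347 at 3 h and 275 and 237 at 6 h in labelled NEIL1-KO. Lrrtm4 (-0.40 ± 0.11) had 256 and 274 at 3 h and 222 and 236 at 6 h in WT, and 228 and 256 at 3 h and 143 and 143 at 6 h in labelled NEIL1-KO. Slitrk4 (-0.50 ± 0.15) had 532 and 469 at 3 h and 319 and 388 at 6 h in WT, and 264 and 486 at 3 h and 295 and 202 at 6 h in labelled NEIL1-KO, and Slitrk1, whose counts are above, stood at -0.34 ± 0.09. Lrrtm3, Lrrtm4 and Slitrk1 did not overlap between the genotypes at either time, although the nearest 3 h values of Lrrtm4 round to the same count, and Slitrk4 overlapped at 3 h.

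This difference between labelled NEIL1-KO and WT depended on few libraries. Without WT ipsilateral 3 h replicate 1 or without NEIL1-KO ipsilateral 3 h replicate 1, 0 members were called. Without NEIL1-KO ipsilateral 6 h replicate 2, the library that stood apart, or without WT ipsilateral 6 h replicate 2, 3 were called, without WT ipsilateral 3 h replicate 2, 7, and without NEIL1-KO ipsilateral 6 h replicate 1, 31. In a fit of the 4 compared groups alone 0 passed, and with a term for sex from Xist 8 did. All 4 WT ipsilateral libraries and 2 of the 4 of labelled NEIL1-KO had low Xist. With the replicate number as a block 14 were called, and Dlgap3, Lrrtm3 and Slitrk4 were not.

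Whether the side difference itself differed from WT was tested at each time. Of the 40 genes 0 were called at either time, whether for labelled NEIL1-KO or for NEIL2-KO, and the same held for all genes tested (0%). The smallest adjusted p among the members was 0.128 in labelled NEIL1-KO at 6 h, where 22 members had an unadjusted p under 0.05, all lower, edgeR called 0 and DESeq2 4. In the other comparisons 2 members (3 h, labelled NEIL1-KO), 0 (3 h, NEIL2-KO) and 6 (6 h, NEIL2-KO) had an unadjusted p under 0.05, and edgeR and DESeq2 called 0. For Camk2a the side difference in labelled NEIL1-KO was -0.32 ± 0.44 (SE) from that of WT at 3 h and -0.66 ± 0.44 at 6 h, and in NEIL2-KO -0.26 ± 0.44 and 0.07 ± 0.44. In labelled NEIL1-KO at 6 h, leaving out WT ipsilateral 6 h replicate 1 gave 10 members called lower and leaving out NEIL1-KO ipsilateral 6 h replicate 1 gave 26. Each side comparison in labelled NEIL1-KO and NEIL2-KO held more called members than that in WT at the same time, and no difference between genotypes in the side difference was called by limma.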

How the data were processed

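RNA was read from 24 hippocampal libraries in 12 groups of 2. The authors deposited 1 table of signal per gene and library, which is a read count divided by a size factor. Per the submitters' processing notes, reads passed through Trim Galore, HISAT2, SAMtools, featureCounts and DESeq2 on GRCm39 (mm39); the sources used here give no versions and no use of strand, so overlapping antisense genes cannot be told apart. In every library the values were whole multiples of 1 read (tolerance 1e-06), so reads were recovered. Lines with no gene name (32.55% of lines, 8.41% to 12.48% of reads) were left out.

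Genes with a value of at least 10 in at least 2 libraries (18364) were put on a log2(value + 1) scale computed from the deposited values and fitted by limma-trend (limma 3.58.1, R 4.3.3), with 12 group means and a shared spread (12 residual degrees of freedom). There were 16 comparisons, each two-sided, with Benjamini-Hochberg adjustment over all genes tested and a threshold of 0.05. Alternatives were a pseudocount of 5, no filter, edgeR 4.0.16 with TMM scaling and DESeq2 1.42.0 on the reads, only the compared groups, the animal or replicate number as a block, a sex term from Xist, and leaving out each library. The series' design text has both sides collected from 2 replicates of each group, and sides with the same number had Xist on the same side of 1000 counts in 12 of 12 animals; correlations of their deviations were -0.006 to 0.271. The titles call the replicates biological. All 40 members were named. Values of every library were given for members called in all 6 side comparisons, called higher in any, among the 3 lowest or 3 highest of a side comparison, called in a comparison of genotypes, or with the smallest or largest mean in their role group, in the groups that the criterion concerns. The 2 called genes with the smallest adjusted p in WT at 6 h were named in each list of other genes. Members and lists were chosen with earlier results of these data known. The fit was tested on simulated counts with known side differences before use. Those counts were drawn independently with the same spread for every gene, so paired sides and a library that stands apart were not covered. Promoter sequences for 30 of the 40 members came from RefSeq (GRCm38.p6), a build other than that of the counts; 10 had no entry.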

Additional observations from a re-analysis of the deposited data

Results flagged for a closer look

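The side difference differed between 3 h and 6 h, by a test of that difference as a mean over the genotypes, for 8 of the 40 genes. On the log2 scale, 6 h minus 3 h, the change was -0.40 for Gphn, -0.66 for Nlgn1, -0.59 for Lrrtm4, -0.50 for Slitrk1, -0.66 for Slitrk3, -0.56 for Flrt3, -0.48 for Epha5 and -0.82 for Epha7. Labelled NEIL1-KO ipsilateral 6 h replicate 2, the library with the lowest median of the 40 genes (-1.49), is among the libraries behind these values, and without it 9 members were called.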

How the results depend on the processing

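In fits of the compared groups alone, members called lower numbered 25 in WT at 3 h (1 was called higher) and 30 in NEIL2-KO at 3 h, the call of Dlg1 in labelled NEIL1-KO at 6 h was lost (0 called higher), and 0 were called in labelled NEIL1-KO against WT ipsilaterally. DESeq2 called 19 lower in WT at 3 h, 13 for the change of the side difference with time and 4 for the difference of the side difference in labelled NEIL1-KO at 6 h. With a sex term 8 were called lower in labelled NEIL1-KO against WT ipsilaterally. Leaving out each library in turn gave 1 to 7 members called lower in WT at 3 h, 16 to 23 in WT at 6 h (0 to 1 higher), 13 to 23 and 32 to 36 in labelled NEIL1-KO at 3 h and 6 h (0 to 1 higher at 6 h), 4 to 14 and 24 to 30 in NEIL2-KO, 0 to 21 for the change with time, 0 to 1 higher for the contralateral side with time, 0 to 31 in labelled NEIL1-KO against WT ipsilaterally, 0 to 1 lower and 0 to 1 higher in NEIL2-KO against WT ipsilaterally, and 0 to 26 and 0 to 1 for the 6 h difference of the side difference (labelled NEIL1-KO, then NEIL2-KO). A library left out leaves 1 in its group, assumed to vary like the others. The cause of these shifts was not tested. Blocked by animal, the counts were 11, 26, 28, 35, 20 and 32 lower in the side comparisons (WT, labelled NEIL1-KO, NEIL2-KO, 3 h then 6 h). For the change with time 7 were lower under the same block. Under it Shank1, Dlgap2 and Lrrtm1 were gained and Nlgn2 lost in labelled NEIL1-KO at 3 h, and Lrrtm3 was lost there at 6 h. Dlg3 and Dlgap2 were gained in NEIL2-KO at 3 h and Lrrtm1 at 6 h. Blocked by replicate number, 14 were lower in labelled NEIL1-KO against WT ipsilaterally. No called member changed sign under any alternative run. TMM scaling moved the median of all genes by less than 0.05 on the log2 scale.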
